A study of Mus musculus with 141 samples.

Results

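The transcripts described here encode 6 cytokine receptor chains, Il6ra, Il6st, Il23r, Il12rb1, Il12rb2 and Il27ra. They were taken by name from the 46517 genes of an RNA sequencing time course of mouse helper T cells, and all 6 were found and passed the filter on low values. The receptors they build share chains. Interleukin 6 binds the chain made from Il6ra and signals through gp130, the product of Il6st, mainly to STAT3. Interleukin 12 needs the products of Il12rb1 and Il12rb2 and signals through STAT4 in Th1 cells, which make interferon gamma. Interleukin 23 uses the same Il12rb1 chain with the product of Il23r, signals through STAT3, and maintains Th17 cells, which make interleukin 17. The chain from Il27ra pairs with gp130 to receive interleukin 27, a cytokine known to restrain Th17 cells.

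Naive CD4 T cells (CD4+CD25-CD44lo) of C57BL/6 mice were sorted from lymph nodes and spleen, and every culture was stimulated with plate-bound antibodies to CD3 (0.5 µg/ml) and CD28 (5 µg/ml). Courses 1 to 3 held cells with IL6 (20 ng/ml) and TGFb (1 ng/ml), which start the Th17 fate, cells without added cytokines, and unstimulated naive cells at 0 h. Courses 4 to 6 held IL6 and TGFb with both IL1b (10 ng/ml) and IL21 (20 ng/ml), with IL1b, or with IL21, and their own naive cells at 0 h. These 3 mixtures are called the both-cytokine, IL1b and IL21 cocktails below. Cells were collected at 9 times from 0.5 to 72 h, 3 libraries in each of 47 groups, 1 per course. Libraries of a group are biological replicates per the labels. The sources used here do not say which mice stand behind each course, so p-values measure the spread between these libraries, nor do they give the age of the mice.

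The libraries held between 16 and 47.1 × 1e+06 counted reads (median 25.4 × 1e+06), so that 1 read was worth 0.0212 to 0.0627 CPM (reads scaled to a library total of 1e+06). Markers of CD4 T cells summed to between 1322 and 3616 CPM in every library. Markers of CD8 T cells (2 genes) summed to between 1.65 and 44.0 CPM, of B cells (5) to between 1.06 and 22.1, of myeloid cells (6) to between 0.354 and 25.9, of NK and gamma-delta T cells (4) to between 0 and 8.01, and of erythroid cells and platelets (4) to between 0 and 35.5. Between IL6 with TGFb and no cytokines at 72 h, 3 of 5 B cell, 2 of 5 tested myeloid and 1 of 2 CD8 markers were lower and 1 of 2 tested NK and gamma-delta markers was higher; their part in the results was not tested. Of 5 CD4 T cell markers, 5 were lower with IL6 and TGFb than without at 2 h, 3 were lower and 1 higher at 24 h, and 1 was lower and 2 higher at 72 h, also not tested for their part. Of all genes tested, 12.4% passed an adjusted p of 0.05 at 2 h, 26.1% at 24 h and 46.3% at 72 h. The marker counts of 72 h lie near that share. In bulk RNA, fewer cells with a transcript and less of it per cell cannot be told apart. Levels below are the deposited CPM, given in the order of the courses. Fold changes are log2 of TMM-scaled CPM plus 0.5 ± SE from limma, which understates changes near 1 CPM, and adjusted p-values are limma's over all genes tested. Genes with an adjusted p below 0.05 count as called, and 95% intervals use the t distribution with the residual degrees of freedom.

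**Figure D1:**
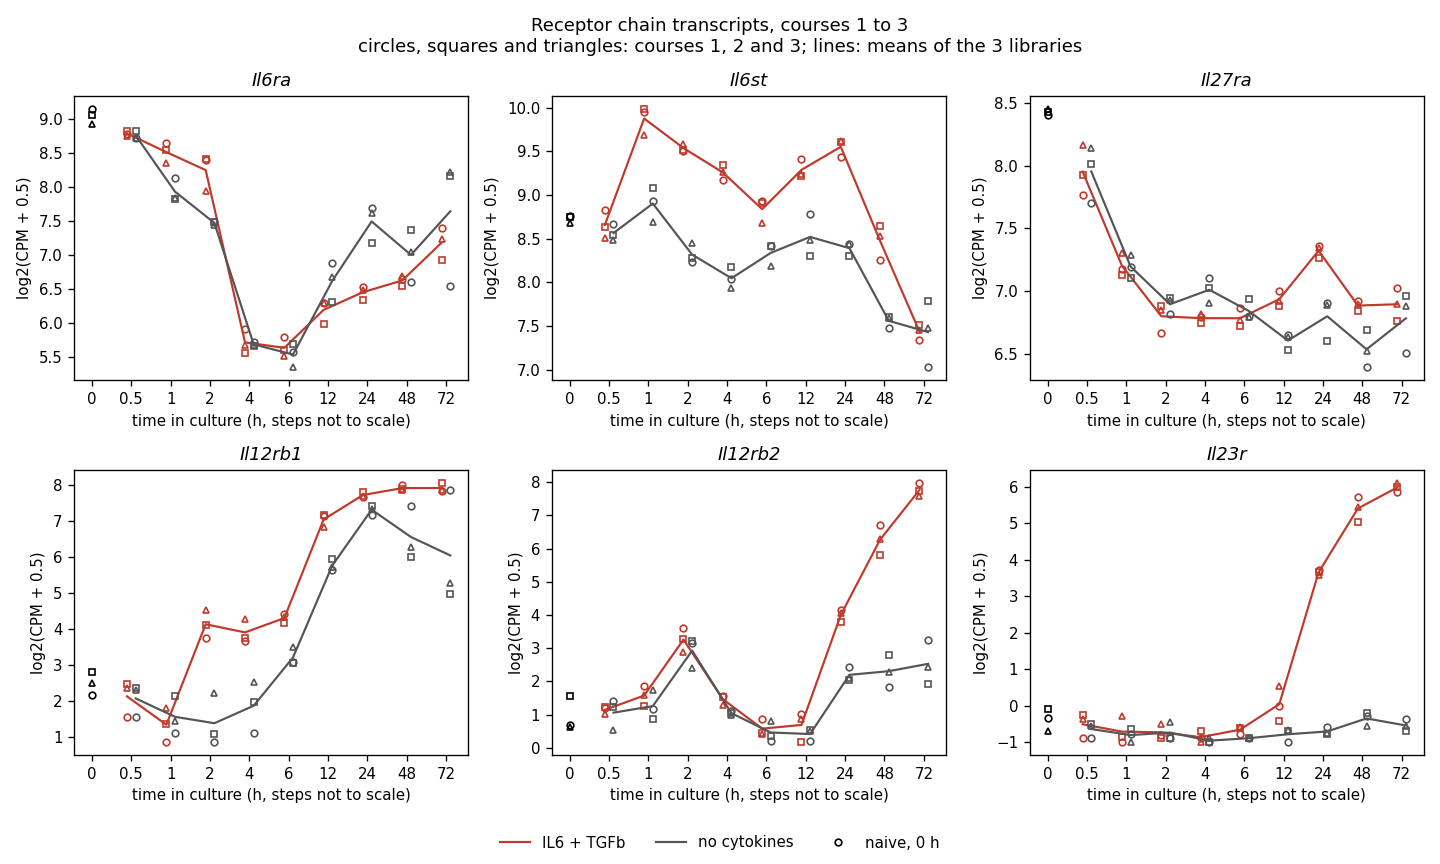
Levels of the 6 transcripts as log2(CPM + 0.5) against time in culture (h, steps not to scale) in courses 1 to 3, with IL6 and TGFb in red, no cytokines in grey and naive cells in black. Symbols are libraries and lines join means of 3; Il23r left the floor only with IL6 and TGFb (57.6 to 67.7 CPM at 72 h), and the no-cytokine library of course 1 stood apart for Il12rb1 and Il6ra at 72 h.

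After stimulation without cytokines, Il6ra and Il27ra were lower than in naive cells at 2 h and Il6st at 6 h, and Il12rb1 was higher at 24 h. Every culture was stimulated, so stimulation and time in culture cannot be told apart in these comparisons. At 2 h, 4 of the 6 members were called against naive cells, where 69.2% of all genes tested were; at 6 h, 4 were called against 72.4%; at 24 h, 5 against 72.7%; and at 72 h, 5 against 65.4%. Most genes were called in these comparisons, so the counts of members are no result about them. Il6ra had 179.7, 180.1 and 173 CPM at 2 h and 47.1, 51.1 and 40.2 CPM at 6 h without cytokines, against 571, 535 and 486 CPM in naive cells. Its libraries did not overlap, and it fell by 1.33 ± 0.24 at 2 h (adjusted p = 3.36e-06) and by 3.54 ± 0.24 at 6 h (adjusted p = 1.86e-17). Il27ra likewise fell, to 112, 122 and 121 CPM at 2 h without cytokines, against 339, 344 and 351 CPM in naive cells, a log2 fold change of -1.29 ± 0.10 (adjusted p = 5.48e-15). It was still down at 72 h (90.3, 124 and 117 CPM; -1.78 ± 0.10, adjusted p = 1.96e-19). Markers of other cell types differed between these groups too. Over all times without cytokines (27 libraries) myeloid markers summed to 0.734 to 13.2 CPM, against 18.5 to 25.9 CPM in the 6 naive libraries, and B cell markers to 1.76 to 12.2 CPM, against 9.05 to 18.2 CPM. Their part in the falls from naive cells was not tested.

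Il6st without cytokines was not called at 2 h (-0.17 ± 0.14, adjusted p = 0.268). At 6 h it had 341, 340.5 and 290.4 CPM, against 435, 431 and 410.4 CPM in naive cells (-0.42 ± 0.14, adjusted p = 0.00508). At 24 h it had 346, 314 and 347 CPM (-0.46 ± 0.14 against the same naive cells, adjusted p = 0.00258). Without a filter on low values both calls were lost (-0.20 at 6 h, adjusted p = 0.351, and -0.24 at 24 h, adjusted p = 0.208), and the 6 h call was lost without course 3 (-0.36, adjusted p = 0.0829). At 72 h it had 129.9, 220.0 and 178 CPM (-1.43 ± 0.14, adjusted p = 1.79e-12). On CPM without TMM scaling the 2 h change of Il6st was called (-0.42, adjusted p = 0.00309). Leaving out TMM scaling gave a median over all genes of -0.22 at 2 h, beside -0.04 with TMM. The 2 h change was also called when only the libraries compared were fitted, with TMM (-0.17, adjusted p = 0.0467). Il12rb1 had 143, 171 and 160.4 CPM at 24 h without cytokines, against 3.95, 6.51 and 5.17 CPM in naive cells, a rise of 4.70 ± 0.41 (adjusted p = 9.85e-14). At 2 h it was lower than in naive cells (-0.92 ± 0.41, adjusted p = 0.0446), although its libraries overlapped (1.3, 1.59 and 4.13 CPM). That call was lost without course 2 (-0.60, adjusted p = 0.378), without a filter (-0.75, adjusted p = 0.186), with a pseudocount of 1 (adjusted p = 0.0651), with DESeq2's size factors (adjusted p = 0.0505), by edgeR (adjusted p = 0.128) and by DESeq2 (adjusted p = 0.083).

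Il12rb2 showed a short early pulse in cells without added cytokines. It had 8.46, 8.86 and 4.77 CPM at 2 h without cytokines, against 1.1, 2.48 and 1.07 CPM in naive cells (2.19 ± 0.29, adjusted p = 7.47e-09), with no overlap. By 6 h it was at 0.664, 0.796 and 1.25 CPM, overlapping the naive libraries (-0.52 ± 0.29, adjusted p = 0.107). Without cytokines it was above naive cells again at 24 h (4.94, 3.65 and 3.80 CPM; 1.13 ± 0.29, adjusted p = 0.000613). At 72 h it had 8.94, 3.27 and 4.92 CPM (1.44 ± 0.29, adjusted p = 3.12e-05). The 72 h call was lost when only the libraries compared were fitted with course as a block (adjusted p = 0.0782). With IL6 and TGFb the pulse at 2 h was 11.8, 9.14 and 6.94 CPM, which overlapped the libraries without cytokines (0.35 ± 0.29, 95% interval -0.24 to 0.93, adjusted p = 0.546), and the 6 h level was 1.32, 0.879 and 0.833 CPM. In the 9 cocktail libraries the 2 h level was 6.23 to 16.1 CPM, and the 6 h level 0.721 to 2.39 CPM. At 6 h the mean of the cocktails was called above their own naive cells (0.68 ± 0.24, adjusted p = 0.00886). That call was lost without course 5 (0.60, adjusted p = 0.0709) and by edgeR (1.01, adjusted p = 0.0509). Il23r had no such pulse. Without cytokines it lay between 0 and 0.366 CPM at every time, and naive cells of the same courses had 0.285, 0.434 and 0.114 CPM. It was called lower than in naive cells at 6 h (-0.50 ± 0.19, adjusted p = 0.0194), a call lost without course 1 (-0.48, adjusted p = 0.089) or course 2 (-0.36, adjusted p = 0.203) and without a filter (-0.45, adjusted p = 0.0695).

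With IL6 and TGFb, Il6st was the first member to be called against no cytokines. Of the 6 members, 0 were called at 0.5 h (0.612% of all genes), 1 at 1 h (7.96%), 3 at 2 h (12.4%), 2 at 4 h (4.4%) and 1 at 6 h (4.61%). Later, 4 were called at 12 h (9.52%), 5 at 24 h (26.1%), 5 at 48 h (53%) and 3 at 72 h (46.3%). EdgeR and DESeq2 also called 0 members at 0.5 h, and 0 had an unadjusted p under 0.05. At 72 h, 3 of 6 lies close to the background share. Without TMM scaling the median over all genes at 48 h was -0.15, beside -0.03 with it.

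**Figure D2:**
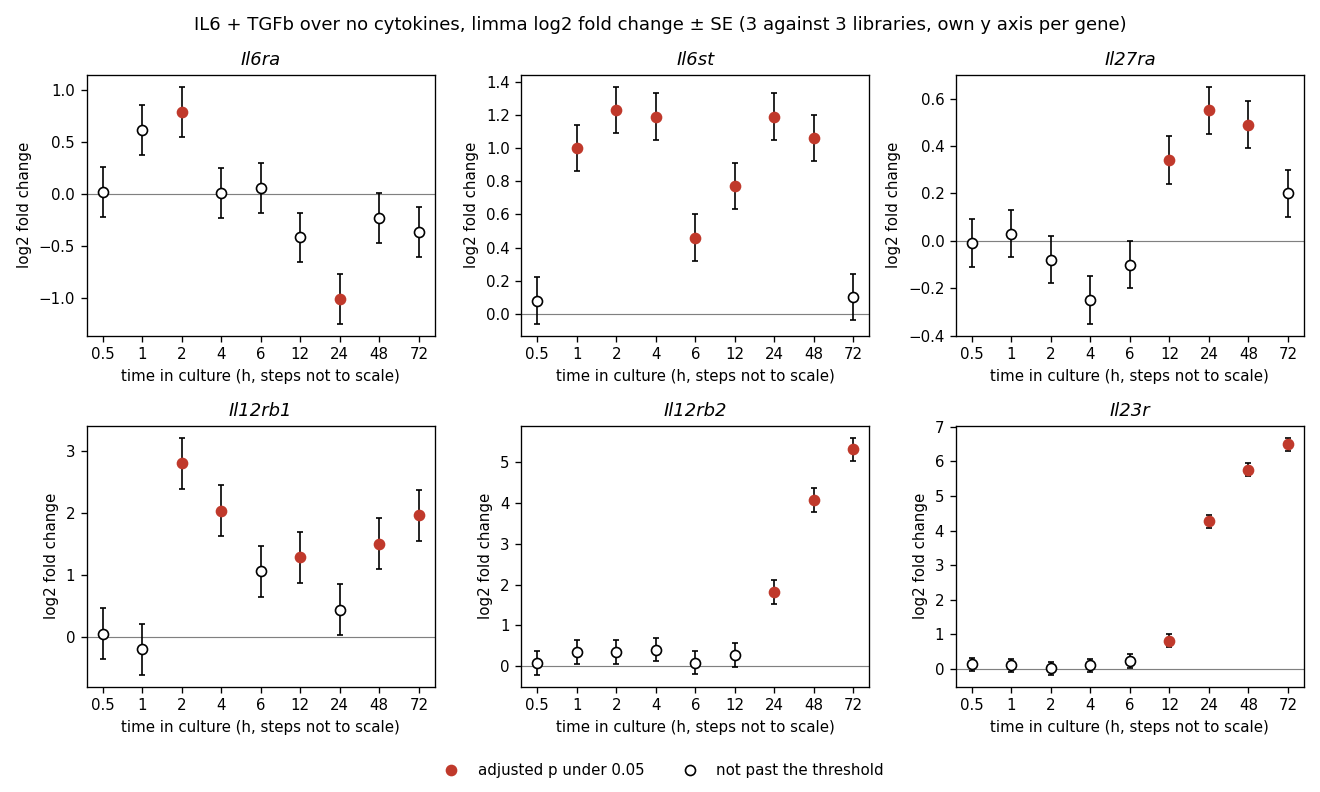
Log2 fold change of IL6 with TGFb over no cytokines (limma, ± SE, 3 against 3 libraries) at 9 times for each chain, with filled points past an adjusted p of 0.05. Il6st was called from 1 to 48 h, Il12rb1 first at 2 h, Il23r first at 12 h (0.81) and Il12rb2 first at 24 h (1.82); each gene has its own y axis.

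Il6st, the signalling chain, had 992, 1016 and 821 CPM at 1 h with IL6 and TGFb, against 489, 543 and 412 CPM without cytokines. The lowest library with cytokines lay above the highest without, and the difference was 1.00 ± 0.14 (adjusted p = 2.69e-07). It was called again at 2 h (1.23 ± 0.14), 4 h (1.19), 6 h (0.46, adjusted p = 0.0336), 12 h (0.77), 24 h (1.19) and 48 h (1.06). The 6 h call was lost without course 2 (0.44, adjusted p = 0.429) or course 3 (0.47, adjusted p = 0.301) and without a filter (0.44, adjusted p = 0.132). At 24 h the levels were 690.1, 778 and 786 CPM with IL6 and TGFb, against 346, 314 and 347 CPM without. At 72 h both groups were low and overlapped, with 161, 182 and 175 CPM against 129.9, 220.0 and 178 CPM (0.10 ± 0.14, 95% interval -0.17 to 0.37, adjusted p = 0.571). Within IL6 and TGFb, Il6st fell by 2.07 ± 0.14 between 24 and 72 h (adjusted p = 5.99e-17).

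Il6ra, the ligand-binding chain, was higher with IL6 and TGFb at 2 h. It had 339, 341 and 245 CPM at 2 h with IL6 and TGFb, against 179.7, 180.1 and 173 CPM without cytokines, with no overlap (0.79 ± 0.24, adjusted p = 0.0193). That call was lost without course 2 (0.73, adjusted p = 0.294) or course 3 (0.95, adjusted p = 0.0878) and without a filter (0.75, adjusted p = 0.0585). By 4 h the groups overlapped at about the same low level, 59.6, 46.9 and 50.6 CPM with IL6 and TGFb and 52.0, 50.2 and 50.9 CPM without (0.01 ± 0.24, adjusted p = 1). At 24 h the order was turned round: 92.3, 80.3 and 89.6 CPM with IL6 and TGFb, against 206, 145 and 196 CPM without, a difference of -1.01 ± 0.24 (adjusted p = 0.000859). The effect at 72 h minus that at 2 h was -1.16 ± 0.33 (adjusted p = 0.00573), which was lost without course 2 (-0.71, adjusted p = 0.33) without course 3 (-1.02, adjusted p = 0.125) and when only the libraries compared were fitted (adjusted p = 0.171). For Il6st the same difference between times was -1.13 ± 0.19 (adjusted p = 6.98e-06).

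Il27ra, which pairs with gp130, had small differences. It was not called from 0.5 to 6 h. At 4 h it had 110.6, 106.5 and 111.9 CPM with IL6 and TGFb, against 136.9, 129.7 and 119 CPM without, with no overlap (-0.25 ± 0.10, adjusted p = 0.232). Same-numbered libraries deviated together at 4 h, and this lower level was called when only they were fitted with course as a block (adjusted p = 0.0179), but not with that block in the fit of courses 1 to 3. Il27ra was higher at 12 h (128, 117 and 121 CPM with IL6 and TGFb, against 99.9, 92.0 and 98.5 CPM without; 0.34 ± 0.10, adjusted p = 0.0237), 24 h (164, 153 and 162 against 119, 96.7 and 118 CPM; 0.55 ± 0.10, adjusted p = 3.02e-05) and 48 h (0.49 ± 0.10, adjusted p = 7.5e-05). The libraries did not overlap at these 3 times, and did at 72 h (0.20 ± 0.10, adjusted p = 0.096). The 12 h call was lost without course 2 (0.33, adjusted p = 0.266) or course 3 (0.35, adjusted p = 0.166). Il27ra stayed below its naive level of 339 to 351 CPM in every library of courses 1 to 3.

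Il12rb1, shared by the IL-12 and IL-23 receptors, was higher by 2 h. It had 12.9, 16.8 and 22.4 CPM at 2 h with IL6 and TGFb, against 1.3, 1.59 and 4.13 CPM without cytokines (2.80 ± 0.41, adjusted p = 1.4e-06). It was higher again at 4 h (12.2, 12.9 and 18.8 against 1.64, 3.42 and 5.18 CPM; 2.03 ± 0.41, adjusted p = 0.000674) and 12 h (138, 143 and 112 against 48.8, 60.7 and 51.8 CPM; 1.28 ± 0.41, adjusted p = 0.0354). At 6 h Il12rb1 had 20.7, 17.4 and 19.4 CPM against 7.97, 7.69 and 10.7 CPM and was not called (1.06 ± 0.41, adjusted p = 0.186), although the libraries did not overlap. It passed the threshold at 6 h when only the libraries compared were fitted (adjusted p = 0.00119). The 12 h call was lost without course 2 (1.31, adjusted p = 0.289), without course 3 (1.37, adjusted p = 0.232), by DESeq2 (1.3, adjusted p = 0.0509) and without a filter (1.29, adjusted p = 0.0864). At 24 h the levels were 202, 221 and 205 CPM against 143, 171 and 160.4 CPM (0.44 ± 0.41, 95% interval -0.39 to 1.27, adjusted p = 0.475). These groups did not overlap, and the difference passed the threshold when only the libraries compared were fitted (adjusted p = 0.00361).

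At 72 h Il12rb1 had 228, 262 and 229.7 CPM with IL6 and TGFb, against 229.8, 30.9 and 38.4 CPM without (1.96 ± 0.41, adjusted p = 0.00011). The no-cytokine library of course 1 overlapped the cytokine group, while those of courses 2 and 3 lay far below it. The same library had the lowest Il6ra, 92.6 CPM beside 287 and 300.2 CPM in courses 2 and 3, against 168, 121 and 150.2 CPM with IL6 and TGFb (-0.37 ± 0.24, adjusted p = 0.203). At 48 h, too, course 1 had the highest Il12rb1 (168 CPM, beside 62.4 and 76.4 CPM) and the lowest Il6ra (96.5 CPM, beside 165 and 132 CPM). The course 1 library also stood apart at 72 h in Cd4 (1428 CPM beside 866 and 871 CPM) and Cd5 (946 CPM beside 408 and 394 CPM). Of the other CD4 T cell markers, Cd3e was higher (487 CPM beside 397 and 385 CPM) and Cd3g lower (293 CPM beside 338 and 363 CPM). Cd28 lay between courses 2 and 3 (461 CPM beside 439 and 480 CPM). Tcrg-C1, a gamma-delta T cell gene, was at 0 CPM beside 5.20 and 4.58 CPM. The part of these markers in the difference was not tested.

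Without the no-cytokine libraries of course 1 at 48 and 72 h, Il6ra at 72 h was called lower with IL6 and TGFb (-0.96, adjusted p = 9.47e-07), as it was at 48 h (-0.44, adjusted p = 0.0141) and 12 h (-0.42, adjusted p = 0.0307). Its higher level at 1 h was then called as well (0.61, adjusted p = 0.00122; with all libraries 403, 372 and 328 against 282, 227 and 229 CPM, adjusted p = 0.127). These course 1 libraries were chosen after the data were seen, in which they stood apart in Il6ra and Il12rb1. Calls gained for these genes without them are therefore no independent evidence. At 1 and 12 h the Il6ra fold changes were the same as with all libraries, and only the shared estimate of the spread changed. At these times same-numbered libraries deviated together. Il6ra was also called there when only the libraries compared were fitted with course as a block (adjusted p = 0.000371 and 0.00282). On all libraries edgeR (-0.56, adjusted p = 0.0367) and DESeq2 (-0.52, adjusted p = 0.0407) called Il6ra at 72 h. Without those course 1 libraries the Il12rb1 difference was 2.83 at 72 h (adjusted p = 2.75e-10) and 1.92 at 48 h (adjusted p = 1.31e-06). On all libraries the Il12rb1 call at 72 h was lost without course 2 (1.37, adjusted p = 0.0712) and when only the libraries compared were fitted (adjusted p = 0.107). At 48 h (1.5 ± 0.41, adjusted p = 0.00202) it was lost without course 2 (1.24, adjusted p = 0.0898) or course 3 (1.38, adjusted p = 0.0568).

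Il23r and Il12rb2, the chains that give each receptor its specificity, were called higher with IL6 and TGFb from 12 h and from 24 h on. Il23r had at most 0.332 CPM up to 6 h with IL6 and TGFb. It had 0.500, 0.252 and 0.941 CPM at 12 h with IL6 and TGFb (43 reads in all), against 0, 0.120 and 0.131 CPM without cytokines (6 reads), a difference of 0.81 ± 0.19 (adjusted p = 0.00288). The 12 h call was lost without course 1 (0.72, adjusted p = 0.0742) or course 3 (0.63, adjusted p = 0.102) and when only the libraries compared were fitted (adjusted p = 0.0537). At 24 h it had 12.7, 12.1 and 11.5 CPM against 0.170, 0.0784 and 0.0927 CPM (4.27 ± 0.19, adjusted p = 9.7e-22). At 72 h its libraries had 57.6, 62.8 and 67.7 CPM against 0.276, 0.118 and 0.173 CPM (6.50 ± 0.19, adjusted p = 6.35e-29). The ratio of mean CPM at 72 h was 332, with 0.5 CPM added to neither mean, and the level without cytokines rests on 15 reads in all.

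Il12rb2, the chain specific to the IL-12 receptor, rose in the same window. It had 1.54, 0.630 and 1.33 CPM at 12 h with IL6 and TGFb, against 0.657, 0.957 and 0.919 CPM without cytokines, and these overlapped (0.27 ± 0.29, adjusted p = 0.813). At 24 h it had 17.4, 13.2 and 16.2 CPM against 4.94, 3.65 and 3.80 CPM (1.82 ± 0.29, adjusted p = 2.45e-06). At 72 h it had 248, 212 and 192 CPM against 8.94, 3.27 and 4.92 CPM (5.31 ± 0.29, adjusted p = 9.85e-20), a ratio of means of 38.1. Between 24 and 72 h of IL6 and TGFb it rose by 3.80 ± 0.29 (adjusted p = 6.69e-15) and Il23r by 2.37 ± 0.19 (adjusted p = 6.98e-14). In that comparison 5 of 6 members were called, against 56.4% of all genes; Il6ra rose (0.78 ± 0.24), Il27ra fell by 0.38 ± 0.10 and Il12rb1 was not called (0.24 ± 0.41, adjusted p = 0.648). The Il12rb1 libraries of 72 h all lay above those of 24 h, and the difference passed the threshold when only these libraries were fitted (adjusted p = 0.00786).

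The effect of IL6 and TGFb at 72 h was set against that at 2 h in the same fit, where 4 of 6 members and 35.3% of all genes were called. It was larger at 72 h for Il23r (6.49 ± 0.28, adjusted p = 7.99e-23) and Il12rb2 (4.96 ± 0.41, adjusted p = 2.1e-13), and smaller for Il6st and Il6ra as given above. Il12rb1 (-0.83 ± 0.58, adjusted p = 0.269) and Il27ra (0.29 ± 0.14, adjusted p = 0.115) were not called.

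Il23r and Il12rb2 are next to each other among the protein-coding genes of mouse chromosome 6, on the same strand, in the RefSeq table (GRCm38.p6; the submitters' processing notes name mm9). Of the 6 members, 4 had an entry in the RefSeq promoter table. The 250 bases before the start of these neighbours are shown, as members that rose in the same window, both read 5′ to 3′ on the minus strand; the windows are chr6:67491856-67492105 for Il23r and chr6:67376189-67376438 for Il12rb2. Capitals mark matches, on either strand, to 4 motifs chosen after the data were known: TTCNNNGAA (STAT factors), TGANTCA (AP-1), AGGTCA (nuclear receptors) and AGGTGT (T-box factors).
Il23r: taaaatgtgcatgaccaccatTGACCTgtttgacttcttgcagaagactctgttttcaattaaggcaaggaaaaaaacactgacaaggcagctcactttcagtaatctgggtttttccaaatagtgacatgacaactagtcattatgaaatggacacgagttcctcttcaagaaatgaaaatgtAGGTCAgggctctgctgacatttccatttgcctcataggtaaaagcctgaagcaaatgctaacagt
Il12rb2: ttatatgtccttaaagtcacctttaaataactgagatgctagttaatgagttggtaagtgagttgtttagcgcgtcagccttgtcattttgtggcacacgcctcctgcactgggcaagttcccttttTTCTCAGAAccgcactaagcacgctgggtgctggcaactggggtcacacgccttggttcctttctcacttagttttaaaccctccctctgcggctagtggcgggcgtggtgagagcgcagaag

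The Il23r window held 2 matches to the nuclear receptor letters, AGGTCA from 66 to 61 bases before the start and its reverse complement TGACCT from 229 to 224 bases before it. Of 32851 promoters of the same length, 14% held at least 1 such match and 1.36% held 2 or more. The Il12rb2 window held 1 match to the STAT letters, TTCTCAGAA from 123 to 115 bases before the start, as did 7.02% of promoters at least once. Neither window held the AP-1 letters (6.75% of promoters) or the T-box letters (11.8%), and the windows had no motif in common. The bases were 39.6% G or C in Il23r and 50% in Il12rb2. A match describes letters, and binding was not measured.

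Both genes were counted in the same libraries, so their ratio depends little on scaling between libraries. Gene length is in it, so its change is read and not its size. The log2 ratio of Il23r to Il12rb2 (0.5 CPM added to each) with IL6 and TGFb was -0.44, -0.13 and -0.48 at 24 h. It was -0.99, -0.76 and -0.83 at 48 h, then -2.10, -1.75 and -1.50 at 72 h. The libraries of the 3 times did not overlap, and the ratio was lower at each later time in each course. In the cocktails the ratio was lower at 72 h than at 24 h in each course, but the 48 h libraries overlapped those of 24 h. The mean at 24, 48 and 72 h was -1.45, -1.35 and -2.82 in the both-cytokine cocktail, -1.39, -1.07 and -2.59 in the IL1b cocktail, and -0.53, -0.55 and -2.16 in the IL21 cocktail.

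**Figure D3:**
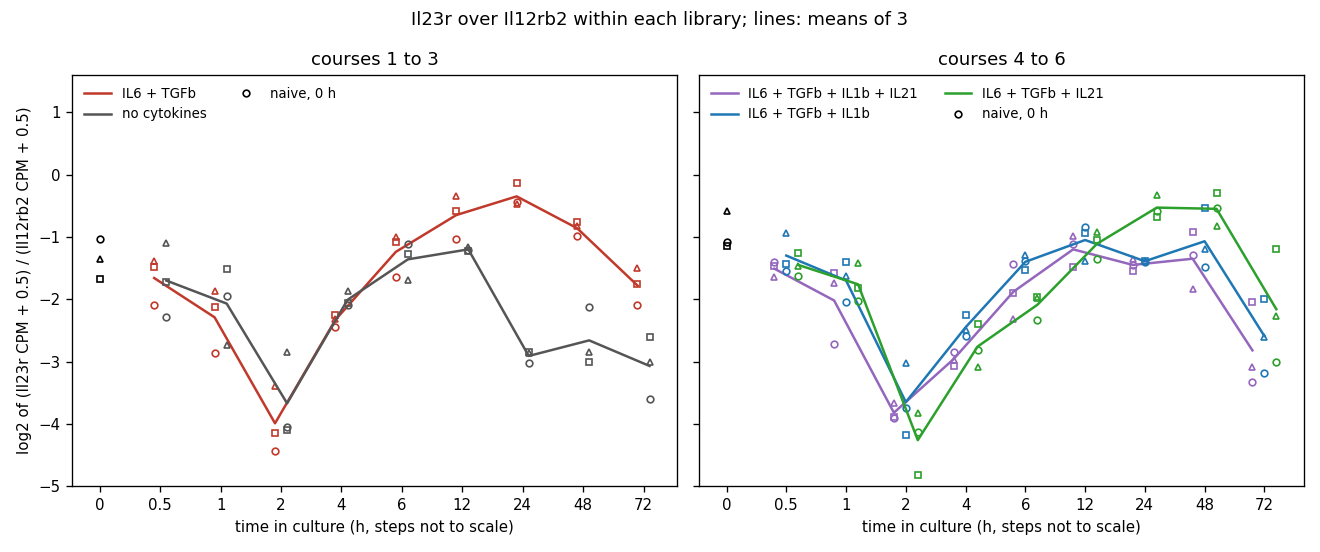
Log2 ratio of Il23r to Il12rb2 within each library (0.5 CPM added to each) against time in culture (h, steps not to scale), courses 1 to 3 on the left and 4 to 6 on the right; symbols are libraries and lines join means of 3. The low at 2 h is the early Il12rb2 pulse, and with IL6 and TGFb the mean was -0.35 at 24 h and -1.78 at 72 h.

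Courses 4 to 6 held no culture without cytokines, so the cocktails were set against naive cells. Against their own naive cells, the mean of the 3 cocktails called 5 of 6 members at 2 h, where 76.9% of all genes were called, 5 at 6 h (79.1%), 6 at 24 h (82.9%) and 6 at 72 h (84.6%). Il23r was the member not called at 2 and 6 h (0.02 ± 0.32 and -0.15 ± 0.32). At 24 h it was up by 3.32 ± 0.32 and at 72 h by 5.43 ± 0.32 (adjusted p = 1.14e-14 and 4.32e-24). Il12rb2 was up by 7.03 ± 0.24 and Il12rb1 by 5.82 ± 0.23 at 72 h, while Il6ra was down by 2.00 ± 0.07, Il27ra by 1.73 ± 0.08 and Il6st by 1.63 ± 0.14. Between 24 and 72 h all 6 members were called, against 76.9% of all genes, with Il12rb2 (3.51 ± 0.17), Il23r (2.10 ± 0.23), Il6ra (0.53 ± 0.05) and Il12rb1 (0.37 ± 0.16, adjusted p = 0.0353) higher at 72 h and Il6st (-2.52 ± 0.10) and Il27ra (-0.79 ± 0.05) lower. The Il12rb1 call was lost without course 5 (0.31, adjusted p = 0.161) or course 6 (0.31, adjusted p = 0.231), without TMM scaling (0.34, adjusted p = 0.0563) and without a filter (0.37, adjusted p = 0.0673). Myeloid markers summed to 0.354 to 14.1 CPM in the 81 cocktail libraries, against the 18.5 to 25.9 CPM of naive cells given above, and their part was not tested.

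**Figure D4:**
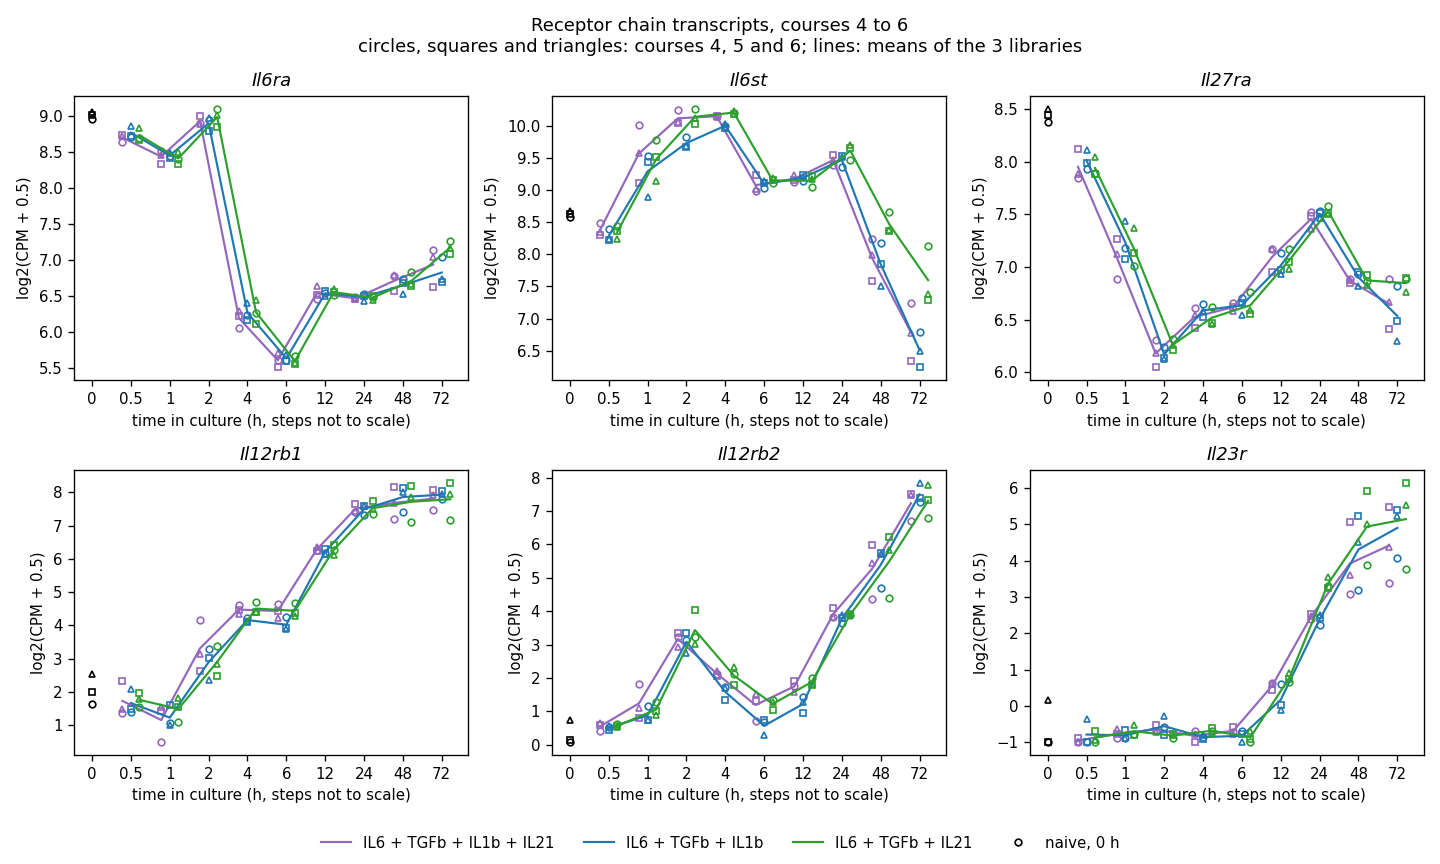
Levels of the 6 transcripts as log2(CPM + 0.5) against time in culture (h, steps not to scale) in courses 4 to 6, for the both-cytokine (purple), IL1b (blue) and IL21 (green) cocktails and naive cells (black); symbols are libraries and lines join means of 3. Il6ra was at 442 to 551 CPM at 2 h and at 44.9 to 51.6 CPM at 6 h.

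Il6ra was higher at 2 h than at 1 h in the cocktails. Its 9 libraries ran from 322 to 366 CPM at 1 h, from 442 to 551 CPM at 2 h, from 66.2 to 86.7 CPM at 4 h and from 44.9 to 51.6 CPM at 6 h, and the ranges of these times did not overlap. The naive libraries of these courses had 499, 517 and 532 CPM, within the 2 h range. At 2 h the mean of the cocktails was called 0.25 ± 0.07 higher than naive cells (adjusted p = 0.00171), but on CPM without TMM scaling the difference was -0.07 (adjusted p = 0.364), so no direction against naive cells is given. That choice gave a median over all genes of -0.29 in this comparison, beside -0.05 with TMM. In courses 1 to 3 the level with IL6 and TGFb was 403, 372 and 328 CPM at 1 h and 339, 341 and 245 CPM at 2 h; course set and added cytokine cannot be told apart here.

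Il6st was high in the cocktails at 2 and 4 h, with 816 to 1232 CPM and 1004 to 1199.7 CPM in the 9 libraries, against 384, 394 and 408 CPM in naive cells. At 6 h it was back at 504 to 600.5 CPM, and a second high of 656 to 836 CPM came at 24 h. Il27ra was lowest at 2 h, at 65.6 to 79.1 CPM, and had a second high at 24 h, at 163 to 191 CPM, against 331, 346 and 362 CPM in naive cells.

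Called differences between the cocktails were in Il6st and Il23r, over 24 to 72 h. The cocktails were compared in 3 windows, each the mean of its times: an early one (0.5 to 2 h), a middle one (4 to 12 h) and a late one (24 to 72 h). Between the both-cytokine and IL21 cocktails, 0, 0 and 2 members were called, with 0, 0.00673 and 6.78% of all genes. Between the IL1b and IL21 cocktails, 0, 0 and 1 members were called, with 0.0606, 0.229 and 11.4% of all genes. Between the both-cytokine and IL1b cocktails, 0 members were called in each window, with 0.471, 0.135 and 0% of all genes. In the windows with 0 members called, edgeR and DESeq2 also called 0, and 0 or 1 member had an unadjusted p under 0.05. Limma and both other tools called 0 genes between the both-cytokine and IL21 cocktails early (1065 at an unadjusted p under 0.05) and between the both-cytokine and IL1b cocktails late (213).

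Il6st was lower in both cocktails that held IL1b than in the one with IL21 and no IL1b. At 72 h it had 151, 80.6 and 109 CPM in the both-cytokine cocktail and 111, 75.2 and 89.5 CPM in the IL1b cocktail, against 278, 156 and 167 CPM in the IL21 cocktail. Each of the IL21 libraries lay above the highest library of the others at this time. Over 24 to 72 h the difference was -0.48 ± 0.10 for the both-cytokine (adjusted p = 0.000573) and -0.62 ± 0.10 for the IL1b cocktail (adjusted p = 3.58e-06), each against the IL21 cocktail. Within a course and time, Il6st was lower than with IL21 in 9 of 9 pairs for either (median ratio 0.747 and 0.699). The both-cytokine difference missed the threshold when only the libraries compared were fitted (adjusted p = 0.0587). No difference between the both-cytokine and IL1b cocktails was called (0.14 ± 0.10, 95% interval -0.06 to 0.34, adjusted p = 1).

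Earlier, Il6st had 909, 816 and 825 CPM at 2 h in the IL1b cocktail, against 1232, 1041 and 1118 CPM in the IL21 cocktail, and 1027, 1004 and 1041 CPM at 4 h, against 1177, 1166 and 1199.7 CPM. Its groups did not overlap at either time, and at 6 and 12 h they did. Over 0.5 to 2 h the difference was -0.21 ± 0.10 (unadjusted p = 0.0406, adjusted p = 0.933 by limma), and over 4 to 12 h it was -0.09 ± 0.10 (adjusted p = 1). The both-cytokine cocktail had 1216, 1049.7 and 1070.4 CPM at 2 h, above every IL1b library, and its early difference from the IL1b cocktail was 0.28 ± 0.10 (unadjusted p = 0.00599, adjusted p = 0.288 by limma).

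At 12 h Il23r had 1.06, 0.844 and 1.01 CPM in the both-cytokine cocktail and 1.01, 0.514 and 0.424 CPM in the IL1b cocktail, against 1.08, 1.18 and 1.37 CPM in the IL21 cocktail. The IL21 libraries lay above the others, but over 4 to 12 h neither difference from the IL21 cocktail was called (-0.06 ± 0.23 for the both-cytokine and -0.25 ± 0.23 for the IL1b cocktail, adjusted p = 1 for each). At 24 h Il23r had 4.74, 5.29 and 5.02 CPM in the both-cytokine cocktail and 4.20, 4.86 and 5.18 CPM in the IL1b cocktail, against 9.45, 9.05 and 11.2 CPM in the IL21 cocktail, with no overlap. At 72 h the courses spread widely: 9.93, 43.9 and 20.4 CPM with both cytokines, 16.5, 41.6 and 37.1 CPM with IL1b and 13.3, 69.6 and 45.5 CPM with IL21. Course 4 was lowest in all 3 cocktails at 48 and 72 h, and the groups overlapped there. Over 24 to 72 h Il23r was lower in the both-cytokine than in the IL21 cocktail (-0.87 ± 0.23, adjusted p = 0.00875). This call was lost without course 6 (-0.70, adjusted p = 0.421), with a pseudocount of 0.1 (adjusted p = 0.0736), by DESeq2 (adjusted p = 0.14) and when only the libraries compared were fitted (adjusted p = 0.249). Il23r was lower in 9 of 9 pairs of the same course and time, from 3 courses (median ratio 0.551).

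Between the IL1b and IL21 cocktails the late difference in Il23r was -0.62 ± 0.23 (adjusted p = 0.0661), with 8 of 9 pairs lower (median ratio 0.607). It missed the threshold here and passed it without course 4 (-0.70, adjusted p = 0.0146), with edgeR (-0.72, adjusted p = 0.0454) and with the course number as a replicate block (-0.62, adjusted p = 0.0344). The pair of the same comparison in which Il23r was higher with IL1b was course 4 at 72 h, 16.5 CPM against 13.3 CPM. Il12rb2, the other specificity chain, had 155, 167 and 227 CPM at 72 h with IL1b, against 111, 159.8 and 221 CPM with IL21, and its late difference was -0.01 ± 0.17 (95% interval -0.36 to 0.33, adjusted p = 0.977). Il12rb1 (0.08 ± 0.16, 95% interval -0.24 to 0.40), Il6ra (-0.14 ± 0.05, adjusted p = 0.0856) and Il27ra (-0.10 ± 0.05, adjusted p = 0.221) were not called either.

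**Figure D5:**
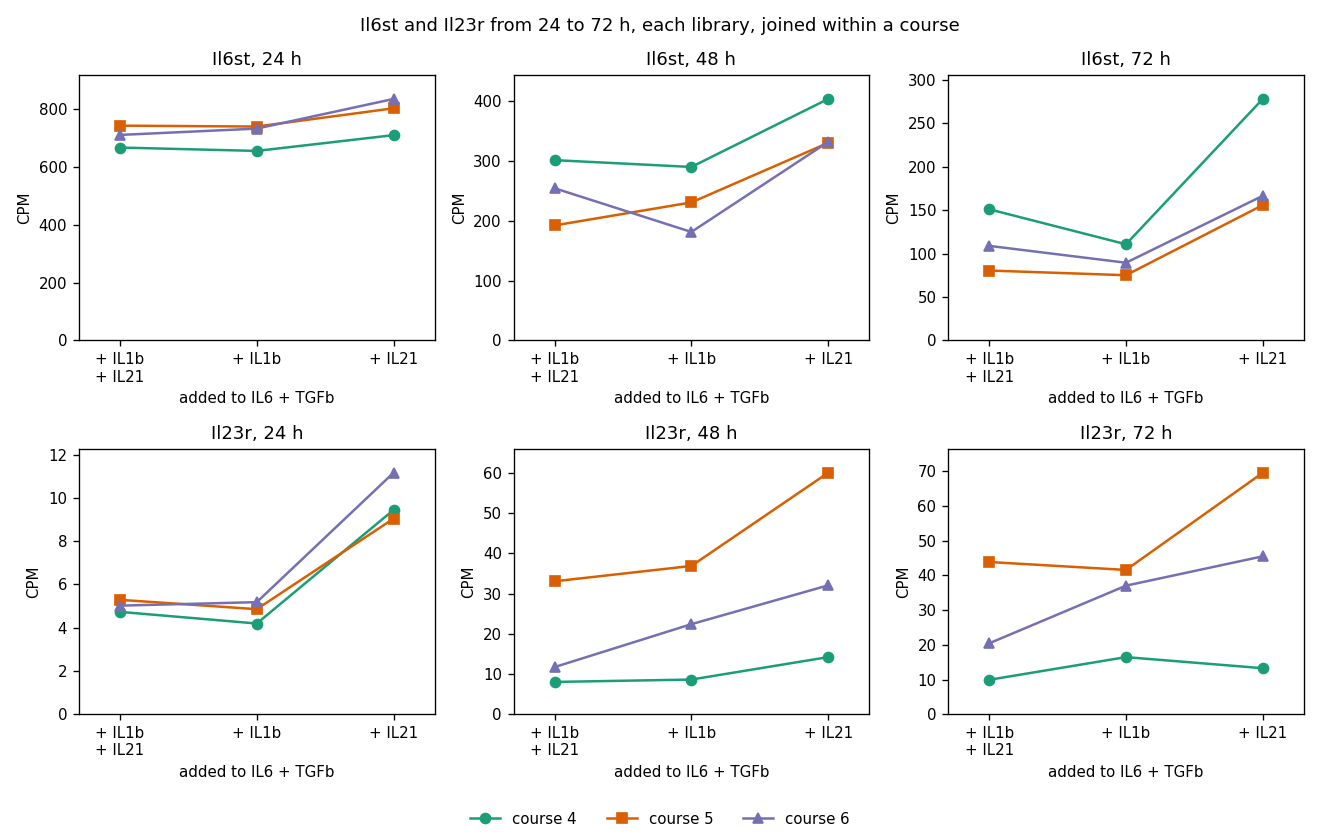
Il6st (top) and Il23r (bottom) in CPM in each library of courses 4 to 6 at 24, 48 and 72 h, with lines joining the cocktails within a course. Il6st in the IL21 cocktail lay above the other cocktails in every course at each time, and Il23r did so in every course except course 4 at 72 h (13.3 CPM, beside 16.5 CPM with IL1b).

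From 4 to 12 h, Il12rb2 was the member with an unadjusted p under 0.05 between the IL1b and IL21 cocktails. At 6 h it had 1.11, 1.18 and 0.721 CPM with IL1b, against 2.02, 1.57 and 1.95 CPM with IL21, and at 12 h 2.21, 1.43 and 1.93 CPM against 3.52, 2.99 and 3.04 CPM. Neither time showed an overlap, and the difference over the window was -0.61 ± 0.17 (adjusted p = 0.141). It passed the threshold without course 4 (-0.65, adjusted p = 0.0378) and when only the libraries compared were fitted (adjusted p = 0.00161). Between the both-cytokine and IL1b cocktails the Il12rb2 difference over this window was 0.58 ± 0.17 (unadjusted p = 0.00119, adjusted p = 0.27 by limma). That too passed without course 4 (0.73, adjusted p = 0.0181) and when only the libraries compared were fitted (adjusted p = 0.0149). Between the both-cytokine and IL21 cocktails the difference was -0.03 ± 0.17.

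The cocktails were also set against IL6 with TGFb over 24 to 72 h, with the naive cells of each set of courses subtracted, since each set has naive cells of its own. Subtraction removes only differences present at 0 h, so course set and added cytokine cannot be told apart in these comparisons. Of the 6 members, 0 were called in each of these comparisons by limma, edgeR and DESeq2, and 1, 2 and 0 had an unadjusted p under 0.05 for the both-cytokine, IL1b and IL21 cocktails. Of all genes, 0.522, 0.639 and 0% were called in the same order, the last with 633 genes at an unadjusted p under 0.05, 0 called by edgeR and 6 by DESeq2. The differences in Il23r were -1.18 ± 0.39 (95% interval -1.95 to -0.40, adjusted p = 0.222), -0.94 ± 0.39 (adjusted p = 0.468) and -0.32 ± 0.39 (adjusted p = 1). Without course 5 the first of these was called (-1.75, adjusted p = 0.00451).

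Across the 47 groups the 6 chains had different ranges. The highest group mean was 11.5 times the lowest for Il6ra (naive cells of courses 1 to 3 against 6 h without cytokines), 12.9 times for Il6st (the IL21 cocktail at 4 h against the IL1b cocktail at 72 h) and 4.85 times for Il27ra (naive cells of courses 4 to 6 against the IL1b cocktail at 2 h). It was 133 times for Il12rb1 (the IL1b cocktail at 72 h, 245 CPM, against the both-cytokine cocktail at 1 h, 1.83 CPM) and 278 times for Il12rb2 (IL6 with TGFb at 72 h against naive cells of courses 4 to 6). Il23r was highest with IL6 and TGFb at 72 h (62.7 ± 5.04 CPM, SD, n = 3) and lowest at 4 h without cytokines, where the 3 libraries held 1 read in all, so no ratio is given. When the groups were ordered by mean, most neighbours lay closer than the larger of their SDs: 38 of 46 neighbouring pairs for Il6ra, 43 for Il6st, 41 for Il23r, 41 for Il12rb1, 43 for Il12rb2 and 42 for Il27ra. Ordering 47 groups by mean makes the gaps between neighbours small in itself. These counts therefore say only that the order of adjacent groups is mostly not resolved.

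The genes whose log2 levels ran most like each chain were found over the 47 group means among 10838 genes averaging 1 CPM or more. The group means share courses, times and cells, so the Pearson r is a description. For Il23r they were Tgm2 (transglutaminase, r = 0.985), Rnf152 (0.981) and Pdpn (podoplanin, 0.979), and for Il12rb2 they were Adcy4 (an adenylate cyclase, 0.946), Il17a (0.930) and S1pr3 (a sphingosine phosphate receptor, 0.929). For Il12rb1 they were Cisd1 (0.961), Dmwd (0.957) and Itpa (0.956). Il6ra ran most like Ncor1 (a nuclear corepressor, 0.953), Cox7a2l (0.952) and Tnrc6b (0.951), Il6st like the chemokine receptor Cxcr5 (0.874), Hnrnph2 (0.837) and Zfp800 (0.823), and Il27ra like Armc7 (0.920), Fam101b (0.907) and Slc26a11 (0.902). Among the members, r was 0.89 for Il23r with Il12rb2, 0.77 for Il23r with Il12rb1 and -0.48 for Il23r with Il6st.

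Other genes of these pathways moved with IL6 and TGFb as follows. Of 5 other receptor chains of the gp130 kind, 1 passed the filter, Il11ra1, which was lower at 72 h (-0.45). Of 12 ligands, 5 passed: 0 were higher and 1 lower at 2 h (median log2 fold change -0.42, beside -0.02 for all genes), where 12.4% of all genes were called. The counts were 2 higher and 2 lower at 24 h (median -0.08, beside -0.02; 26.1% of all genes called), with 2 higher and 2 lower at 72 h (0.35, beside -0.05; 46.3%). Lif, which signals through gp130, had 494 ± 42.4 CPM at 72 h with IL6 and TGFb, against 62.3 ± 60.9 CPM without (SD, n = 3 each; 3.49 ± 0.40, adjusted p = 1e-09). Clcf1, another such ligand, had 58.1 ± 6.32 against 108 ± 4.19 CPM at 2 h (-0.88 ± 0.14, adjusted p = 9.39e-06).

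Of 8 Janus kinases and STATs, 3 were higher and 1 lower at 2 h (median 0.14), 3 higher and 2 lower at 24 h (0.34), then 2 higher and 1 lower at 72 h (0.17), beside the same 12.4, 26.1 and 46.3% of all genes. At 72 h, 3 of 8 is no more than that share. Stat3, the factor activated by the IL-6 and IL-23 receptors, was higher at all 3 times (2.48 ± 0.13, 1.75 ± 0.13 and 1.75 ± 0.13), and Stat4, the factor of the IL-12 receptor, was lower at 24 h (3.96 ± 0.976 against 30.8 ± 2.47 CPM; -2.79 ± 0.24, adjusted p = 3.88e-13) and 72 h (-0.80 ± 0.24, adjusted p = 0.00478). At 72 h Stat4 had 21.5 ± 6.43 CPM, against a widely spread 44.7 ± 29.6 CPM without cytokines (SD, n = 3 each). That is the group in which the course 1 library stood apart for Il12rb1 and Il6ra. Il12rb2 was higher and Stat4 lower at 24 and 72 h. Of 9 limiters and sheddases, 4 were higher and 2 lower at 2 h (median 0.25), 4 higher and 2 lower at 24 h (0.18), then 2 higher and 2 lower at 72 h (0.41), and 4 of 9 at 72 h is likewise close to the 46.3% of all genes. Socs3, an inhibitor that binds gp130, was higher at 2 h (2.72 ± 0.56, adjusted p = 0.0004), and Adam10, a protease that can shed the IL-6 receptor, was lower (-0.67 ± 0.16, adjusted p = 0.00336).

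Of 8 regulators and cytokines of the fates served by IL-12 and IL-23, 1 was higher and 1 lower at 2 h (median 0.19), 4 higher and 1 lower at 24 h (2.34), then 4 higher and 2 lower at 72 h (2.09), beside 12.4, 26.1 and 46.3% of all genes called. Tbx21, the Th1 regulator, was higher at 2 h (5.07 ± 0.61, adjusted p = 1.57e-08), the time at which the early Il12rb2 pulse showed no called difference, and Rora was higher at 72 h (3.54 ± 0.25). Between the IL1b and IL21 cocktails late, Stat5a was higher (0.83 ± 0.08, adjusted p = 2.47e-13) and Tbx21 lower (-1.11 ± 0.25, adjusted p = 0.000942) with IL1b. In that comparison, where 11.4% of all genes were called, 3 of 5 ligands were higher and 0 lower, 3 of 8 kinases and STATs higher and 0 lower, 0 of 9 limiters and sheddases higher and 4 lower, and 1 of 8 fate genes higher and 2 lower.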

How the data were processed

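Bulk RNA of 47 groups of 3 libraries was sequenced. Per the labels' protocols, RNA was isolated from sorted and cultured cells and DNase treated. The submitters' processing notes name TopHat, HTSeq, mm9 and GRCh37 without versions or roles; no source used here says whether counting used strand. The values deposited for 46517 genes are CPM made by the authors, although the file is named for counts: every column sums to 1e+06, and all non-zero values were whole multiples of 1 read (100% at a tolerance of 0.001). Reads recovered this way gave between 16 and 47.1 × 1e+06 per library. All columns were used and none were identical; replicates differed by 3.24 to 308 times Poisson noise (median 13.4).

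Genes reaching 1 CPM in 3 or more libraries entered limma-trend on log2(TMM-scaled CPM + 0.5): 14695 genes in courses 1 to 3 (38 residual degrees of freedom), 14859 in courses 4 to 6 (56) and 15328 over all (94), with Benjamini-Hochberg adjustment over all genes of a comparison. TMM factors ran from 0.779 to 1.182. Course numbers come from the sample titles. At 0.5, 1, 2, 4 and 12 h same-numbered libraries of IL6 with TGFb and of no cytokines deviated together (lowest correlation of deviations 0.126, 0.388, 0.405, 0.234 and 0.306), and elsewhere at least 1 pair was at or below 0.1. In the late comparisons of the both-cytokine or IL1b with the IL21 cocktail 8 of 9 pairs were above it (lowest 0.006 and 0.094). Course was a block in alternatives. Other alternatives were DESeq2 size factors or no TMM scaling, pseudocounts of 0.1 and 1, other filters, edgeR and DESeq2 on recovered reads, fits of only the libraries compared, and each course left out. Software was limma 3.58.1, DESeq2 1.42.0, edgeR 4.0.16 and data.table (1.17.8) under R 4.3.3. The fits were tested on simulated data. Members, gene lists, motifs and comparisons were chosen with earlier results of these data known. Named genes were all members, the 3 genes most like each, and up to 4 called genes of largest change per list with at least 5 CPM in a group; Il11ra1 was named after its values were seen, and a gene that the rule also selects is not reported here. Promoter sequence came from RefSeq (GRCm38.p6), 250 bases before each start.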

Additional observations from a re-analysis of the deposited data

Results flagged for a closer look

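The effect of IL6 with TGFb over no cytokines differed between 72 and 2 h for 4 of the 6 members, by a test of the difference itself in the same fit. In that test 35.3% of all genes were called. The difference, 72 h minus 2 h, was 6.49 for Il23r (fold change 6.50 at 72 h and 0.01 at 2 h) and 4.96 for Il12rb2 (5.31 and 0.35). It was -1.13 for Il6st (0.10 and 1.23) and -1.16 for Il6ra (-0.37 and 0.79). The Il6ra difference missed the threshold when only the libraries compared were fitted (adjusted p = 0.171). It also missed the threshold without course 2 (-0.71, adjusted p = 0.33) or course 3 (-1.02, adjusted p = 0.125).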

How the results depend on the processing

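Of the fold changes of single members under all alternatives, 2656 kept their direction and their side of the threshold, 43 gained and 49 lost the call, 83 moved while not called, and 1 was reversed: Il6ra at 2 h in the cocktails against naive cells, -0.07 without TMM scaling. Counts of called members kept within 1.5 times in 442 cases. Without a filter the count was 2 (in place of 4) for no cytokines at 6 h against naive cells and 0 for IL6 with TGFb at 6 h. Fitting only the libraries compared gave 2 at 1 h and 2 at 6 h for IL6 with TGFb, 2 for the IL1b against the IL21 cocktail and 2 for the both-cytokine against the IL1b cocktail at 4 to 12 h, and 0 for the both-cytokine against the IL21 cocktail late. The same fit with a replicate block gave 3 for no cytokines at 72 h against naive cells, 2 at 1 h, 2 at 6 h, 3 and 2 for those cocktail pairs at 4 to 12 h, and 2 for the IL1b against the IL21 cocktail late. Late, the IL1b against the IL21 cocktail also had 2 with the replicate block alone and with edgeR; the both-cytokine against the IL21 cocktail had 1 with a pseudocount of 0.1 and with DESeq2. The replicate block alone changed no other call of a member. Without the no-cytokine libraries of course 1 at 48 and 72 h (chosen after seeing the data), IL6 with TGFb had 2 at 1 h and 2 at 6 h (Il12rb1, 1.06, adjusted p = 0.0107). Leaving out 1 course gave 1 to 2 at 1 h, 0 to 2 at 6 h and 1 to 3 at 12 h for IL6 with TGFb, 0 to 1 and 1 to 2 for the IL1b against the IL21 cocktail at 4 to 12 h and late, 1 to 2 for the both-cytokine against the IL21 cocktail late, 0 to 1 for it against the IL1b cocktail at 4 to 12 h, and 0 to 1 for it against IL6 with TGFb. The cause of these changes was not tested. Over all alternatives, genes called at 72 h of IL6 with TGFb ran from 1065 to 8709 (6800 in the reported fit), at 48 h from 3627 to 8940 (7791), at 24 h from 2328 to 6293 (3840), at 2 h from 666 to 3180 (1826), and late between the IL1b and IL21 cocktails from 457 to 2133 (1699) and between the both-cytokine and IL21 cocktails from 343 to 1495 (1008). Depth limits Il23r before 12 h, where no group of 3 libraries held more than 17 reads.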
